A study of Mus musculus with 12 samples.

Results

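The classical axon guidance ligands and receptors were measured in mouse fibroblasts, embryonic stem cells, sphere cells and induced pluripotent stem (iPS) lines: the ephrins and Eph receptors, the semaphorins with their plexin and neuropilin receptors, the netrins and Unc5 receptors, and the Slits and Robo receptors. Members were taken from the array design by a rule on the gene name, which uses no measured value. The choice of these families was made with earlier results of these data known. Of 41174 gene probes, 124 carried such a name, and they stood for 69 genes. Of these, 68 were well above background on at least 1 array, among 25417 genes that were. The exception was Sema3d, a secreted semaphorin, which was dim on every array. Unc50 and Unc5cl share the name pattern but are not netrin receptors of the classical kind, and Unc50 is kept outside the families below. Plxnd1 was not matched to a probe and is not analysed here.

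RNA from 12 samples was hybridised once each to 12 one-colour Agilent arrays. The study asked whether fibroblasts made neural stem cell-like with Bmi1, a Polycomb subunit, or with an activator of hedgehog signalling could then be turned into iPS cells with Oct4 (Pou5f1) as the added pluripotency factor. The reference arrays held embryonic stem (ES) cells of blastocyst origin (from 129/Ola mice) and fibroblasts of mouse embryos (MEF), 1 array each. A further array held Bmi1-transduced neural stem cell-like spheres made from embryonic fibroblasts. All 9 iPS lines had received Oct4. From embryonic fibroblasts came 2 lines with Bmi1, 1 line after treatment with the protein Shh, 2 after oxysterol (an oxidised sterol) and 2 after purmorphamine (a small-molecule hedgehog agonist), and 2 more oxysterol lines came from adult tail-tip fibroblasts. The labels number the lines within a treatment but do not say whether they came from separate cultures, so p-values measure only the spread between these arrays. Replicates were missing for MEF, ES, the spheres and the treatment with Shh, and the fit assumes that a lone array varies as the iPS lines do.

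A level is the log2 processed signal minus the 75th percentile of its array, so that a difference of 1 is 2-fold. The percentile ran from 1322.4 to 2148.1 intensity units, and 58.41% (Shh-Oct4 line) to 79.99% (spheres) of spots were well above background. Pou5f1 was at 3.63 in ES cells, between 3.41 and 4.13 in the lines, at -6.58 in MEF and at -5.51 in the spheres. The Bmi1 probe read 0.45 in MEF, -0.18 in the spheres and between -3.17 and -1.63 in the lines, so it showed no higher level in Bmi1-transduced cells. Of 12 neural stem markers, 4 were at least 2-fold higher and 3 at least 2-fold lower in the spheres than in MEF, 33.3% and 25% beside 32.4% and 18% of all genes. The summed level of 14 fibroblast markers was 7.65 in MEF, 6.85 in the spheres and 3.36 in ES cells. Among the lines it was 5.38 in Bmi1-Oct4 line 1, 5.49 in purmorphamine-Oct4 line 2, 5.87 in tail-tip line 2, 4.33 in oxysterol-Oct4 line 1 and 2.96 to 3.29 in the other 5. In such bulk samples fewer cells of a type and less RNA per cell cannot be told apart.

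Guidance molecules steer growing axons, but they act in many tissues as short-range signals between neighbouring cells or as secreted cues. Ephrins are bound to the membrane and signal in both directions with Eph receptor tyrosine kinases; class 3 semaphorins are secreted and bind neuropilins that signal through plexins; netrins bind Unc5 and DCC-family receptors; Slits are large secreted proteins that bind Robo receptors. In embryos the same families take part in segmentation, neural crest migration and blood vessel growth, and mesenchymal cells are known producers of several of the ligands.

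Compared with MEF, the 9 iPS lines had higher Robo2, Robo4, Epha7 and Sema4b and lower Slit2, Slit3, Efna5, Efnb2, Sema3c, Sema6a and Unc5c. Of 68 members, 4 were called higher and 7 lower at an adjusted p under 0.05 (limma, Benjamini-Hochberg over all genes). That is 16.2% of the members, where 10.8% of 25405 genes were called, and the split differed from that of all genes: 5.88% of members against 7.83% of genes were higher, and 10.3% against 2.93% lower. The median member difference was -0.03, and the median over all genes 0.38. Against the spheres, 5 members were higher (Efna2, Epha4, Epha7, Sema3e and Robo1) and 5 lower (Efna5, Sema3g, Sema5a, Sema6d and Slit2), 14.7% of the members beside 8.68% of all genes (5.79% higher and 2.89% lower), with medians of -0.16 and -0.03. Against ES cells limma called none of the 68, beside 6 of 25379 genes (0.0236%, with 0.00788% higher and 0.0158% lower), while 10 members had an unadjusted p under 0.05.

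Arrays shared 3 slides, and MEF and ES were on the slide of both Bmi1-Oct4 lines. When slide entered as a fixed block, 7 of the 11 members stayed called against MEF. Efnb2, Sema3c, Sema4b and Sema6a did not (limma adjusted p of 0.0518, 0.0896, 0.107 and 0.0661). Within the slide of MEF alone, the 11 differences ran from -4.94 for Unc5c to 5.58 for Robo2, but none was called, with 1 residual degree of freedom. Their signs could not turn there, because MEF lay outside the range of all lines for each of the 11. Against the spheres the block ended the calls of Efna2 (0.0515), Sema6d (0.0948) and Slit2 (0.146).

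Other settings also ended calls. In the 8-group model, which gives each iPS treatment its own mean, Efnb2 (limma adjusted p = 0.0531), Sema4b (0.0635) and Sema6a (0.0663) were not called against MEF, nor Sema3g (0.0815), Sema6d (0.0874) and Slit2 (0.116) against the spheres. Quantile normalization ended the calls of Efnb2 (0.0642) and Sema4b (0.0691) against MEF and of Sema6d (0.0523) against the spheres. With the mean of all probes of a gene in place of its brightest probe, 5 of the 11 stayed called against MEF (Efnb2, Epha7, Robo4, Sema4b and Unc5c). Robo4 and Sema4b have a single probe each, so this summary could not change their values. Efna5, Robo2, Sema3c, Sema6a, Slit2 and Slit3 were lost, and Nrp1 (-4.57, adjusted p = 0.00234) and Sema4d (3.1, 0.00231) were gained. Against the spheres this summary ended the calls of Epha4, Epha7 (0.60, adjusted p = 0.546), Sema6d (-2.20, 0.206) and Slit2 (-0.57, 0.724). It added Plxna1 (-1.70, 0.0387), Plxna4 (-4.13, 0.0125) and Sema4d (2.79, 0.00435).

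**Figure D1:**
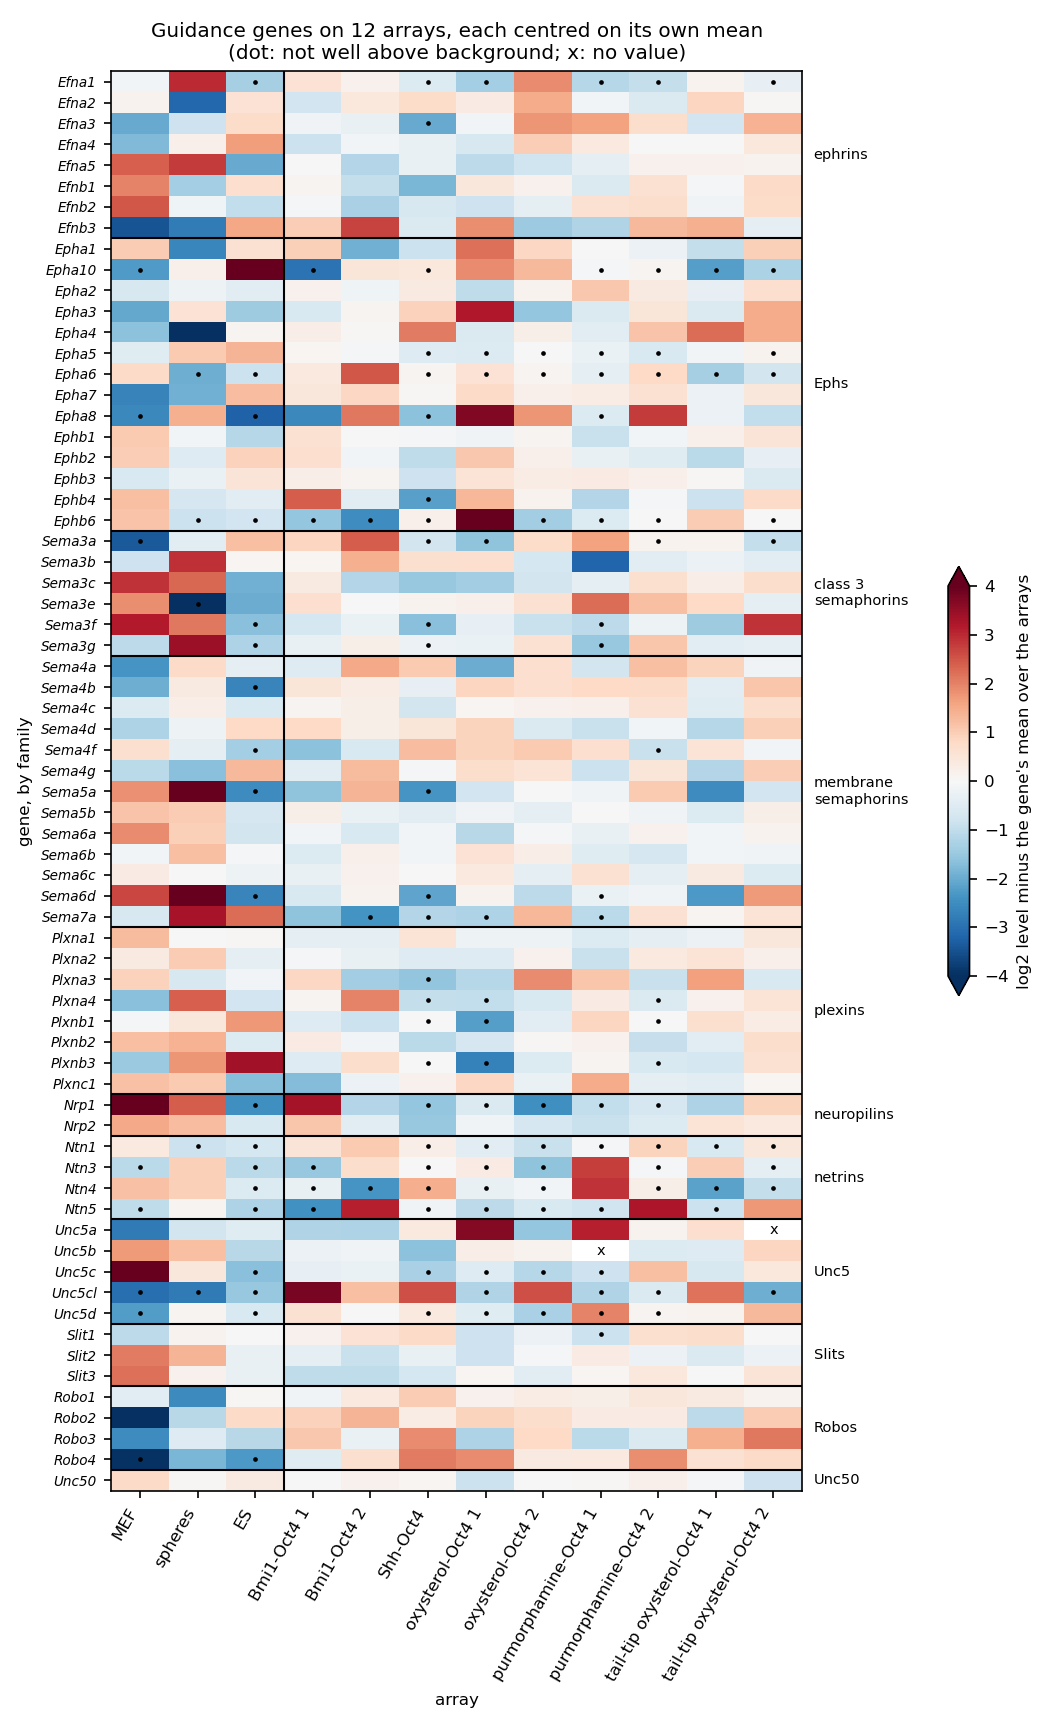
Level of 68 guidance genes (vertical axis, grouped by family) on 12 arrays (horizontal axis), as the log2 level minus the gene's own mean, in colour. Black dots mark spots not well above background and x marks no value. The MEF column is low for Robo2 and Robo4 and high for Slit2, Slit3 and Unc5c.

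Among the ligands of the ephrin family, Efna5, a GPI-anchored ephrin, was lower in the iPS lines than in either fibroblast-derived sample. Its level was 2.25 in MEF and 2.64 in the spheres, but -1.31, -0.44 and 0.01 (lowest, median and highest) in the lines. No line reached MEF or the spheres, and every line was above ES cells at -2.17. The mean of the lines, -0.50 ± 0.53 (SD, n = 9), was lower than MEF by a log2 difference of -2.76 (SE 0.579, limma adjusted p = 0.0137) and lower than the spheres by -3.15 (SE 0.579, adjusted p = 0.00739). A second Efna5 probe gave -0.5 and -2.11, and with the mean of both probes the difference from MEF was -1.63 and not called (adjusted p = 0.0771). Against ES cells Efna5 was at 1.67, with a limma adjusted p of 0.831.

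Efnb2, a transmembrane ephrin that marks arterial endothelium, was at 4.05 in MEF, 1.42 in the spheres and 0.58 in ES cells, and ran from 0.27 through a median of 1.43 to 2.30 in the lines. All 9 lines lay below MEF and, on this probe, spread around the spheres. The difference from MEF was -2.62 (SE 0.737, limma adjusted p = 0.0476), and it lost its call without Bmi1-Oct4 line 1 (0.0636), the Shh-Oct4 line (0.0645), oxysterol-Oct4 line 1 (0.0518), oxysterol-Oct4 line 2 (0.0691) or tail-tip line 1 (0.0679). The call was also lost with scaling on the probes detected on all arrays (0.0590), without the filter on dim probes (0.0537) and with signals at the highest floor (0.0554). A second Efnb2 probe, above background on 9 arrays, put every line (-5.72 to -4.14) below the spheres (-1.59). Tested on its own, it was lower in the lines than in the spheres by -3.08 (limma adjusted p = 0.00767). From MEF it differed by -1.91 and was not called (0.0599). Efnb1, its X-linked relative, was at 3.97 in MEF and 0.62 in the spheres, with lines from 0.14 to 2.75, and was not called (-2.13, limma adjusted p = 0.134).

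Efna2 set the spheres apart. It was at -4.63 there, at -1.36 in MEF and at -0.90 in ES cells, while the lines ran from -2.26 through -1.17 to 0.00. MEF and ES lay within the range of the lines and the spheres well below it, with a difference of 3.42 between lines and spheres (SE 0.732, limma adjusted p = 0.0165). Efnb3, a transmembrane ephrin of the nervous system, was at -6.35 in MEF, -5.68 in the spheres and -1.35 in ES cells. Its lines were spread over -4.36 to -0.18, all above MEF, and the difference of 3.98 had an SE of 1.40 and was not called (limma adjusted p = 0.0992). Efna1, Efna3 and Efna4 lie side by side on chromosome 3, with their probes 42.6 and 19.6 kb apart on the same strand. All 3 were at least 2-fold higher in the spheres than in MEF (3.11, 1.18 and 1.98), and Efna3 and Efna4 also in ES cells (2.75 and 3.44), each as 1 array against 1 with no test.

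Of 14 Eph receptors, Epha7 was called higher in the lines than in MEF (7.14%, beside 7.83% of all genes). Epha4 and Epha7 were called higher than in the spheres (14.3%, beside 5.79%). With the probe used for each gene, none was called lower. Epha7, a receptor for A-type ephrins, was at -3.49 in MEF, -2.71 in the spheres and 0.43 in ES cells. The lines were tightly grouped at -1.05, -0.35 and 0.01, above MEF and spheres and below ES. The lines exceeded MEF by 3.06 (SE 0.444, limma adjusted p = 0.00185) and the spheres by 2.28 (SE 0.444, adjusted p = 0.00999). A second Epha7 probe, above background on all 12 arrays, gave 0.60 and -1.07, so the difference from the spheres had opposite signs on the 2 probes.

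Epha4, which binds ephrins of both classes, was at -5.31 in the spheres, -2.03 in MEF, -0.29 in ES cells and -0.96, -0.12 and 1.85 in the lines. The spheres were the lowest of all samples on this probe, 5.64 below the lines (SE 1.02, limma adjusted p = 0.00669). The other Epha4 probe lies about 1 kb away on the same strand and was also above background on all 12 arrays, but there the spheres were the highest sample, at -1.42 with lines from -3.83 to -1.80. It gave lines minus spheres as -1.14. With the mean of both probes the difference was 2.25 and not called (adjusted p = 0.118). The probes are shown by their first 30 of 60 bases because their opposite readings decide this result, with positions on mm7, the build for which the array was designed; exon and UTR annotation of that build was not used here.

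Epha4 probe used, chr1:77593690-77593749, minus strand: ccaataaatatttattgcattctgacaggg
Epha4 other probe, chr1:77594749-77594808, minus strand: tgcctccgatacacaatgctaaagtgacat

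The other Eph receptors moved less uniformly. Epha2, a receptor abundant in epithelia, was at 2.05 in MEF, 2.47 in the spheres, 2.25 in ES cells and 1.68 to 3.77 in the lines, and Ephb3 likewise spanned only 0.77 to 2.17 in the lines around 1.01 in MEF; neither was called in any comparison. Epha10, a receptor that lacks kinase activity, was at -2.20 in ES cells but not well above background in MEF (-8.79) and in 6 of 9 lines. ES cells exceeded MEF by at least 23.7-fold for Epha10, counting MEF at its array's detection floor, the lowest signal well above background there. The difference between lines and ES cells, -4.59, was not called (limma adjusted p = 0.776). Epha8 was not well above background in MEF or ES cells, was at -2.69 in the spheres (at least 16.1-fold above MEF), and ranged over -6.69 to -0.41 in the lines. Epha1 was at -4.21 in the spheres and -0.58 in MEF, a difference of -3.63 between single arrays. Other probes of Epha3 and Epha6 were called against MEF when tested on their own. The Epha3 probe (0.32 in MEF) was lower in the lines by -7.24 (limma adjusted p = 0.0255), where the probe used gave 2.37. The Epha6 probe was higher by 2.34 (0.0261), where the probe used gave -0.54. These 2 probes were above background on 3 and 2 arrays.

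The secreted class 3 semaphorins divided the samples in different ways. Sema3c, a cue for neural crest and vessels, was at 2.17 in MEF and 1.57 in the spheres, at -2.67 in ES cells, and at -2.26, -1.13 and -0.02 in the lines. All lines fell between ES cells and the spheres. The lines were lower than MEF by -3.28 (SE 0.877, limma adjusted p = 0.0394). A second probe gave -3.3. The call was lost with the mean of both probes (-3.29, adjusted p = 0.0583), with signals at the highest floor (0.0517), and without Bmi1-Oct4 line 2 (0.0544), oxysterol-Oct4 line 2 (0.0586) or purmorphamine-Oct4 line 1 (0.0600). Against the spheres Sema3c differed by -2.67 and was not called (adjusted p = 0.0954).

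Sema3e, the ligand of Plxnd1, was not well above background in the spheres (-7.47) but was at -0.28 in MEF, -4.12 in ES cells and -2.52, -1.54 and 0.08 in the lines. The lines exceeded the spheres by at least 40.8-fold (fitted difference 5.93, SE 0.781, limma adjusted p = 0.000874), and MEF exceeded them by at least 97.5-fold. When all signals were raised to the highest of the array floors, the first difference shrank to 2.65 and was not called (adjusted p = 0.0715). A second Sema3e probe was dim in MEF (-8.82) and, tested on its own, higher in the lines than in MEF by 4.92 (adjusted p = 0.0475), where the probe used for the gene gave -1.26 (adjusted p = 0.322).

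Sema3g and Sema3b stood out in the spheres. Sema3g, known from endothelium, was at -0.86 in the spheres, -5.33 in MEF and -5.80, -4.55 and -3.18 in the lines, with no line near the spheres. The lines were lower than the spheres by -3.56 (SE 0.749, limma adjusted p = 0.0150). Sema3b was at 1.98 in the spheres, -1.76 in MEF and -4.12 to 0.48 in the lines, and its -3.17 was not called (adjusted p = 0.159). Sema3f, which binds Nrp2, was at -0.62 in MEF and -1.70 in the spheres, and 8 of its lines lay between -5.46 and -3.99 while tail-tip line 2 was at -0.90. With all lines its difference from MEF, -3.59, was not called (adjusted p = 0.104). Without tail-tip line 2 it was -4.0 and called (0.00357), as was the difference from the spheres (-2.91, 0.0174). The high reading of tail-tip line 2 rests on this probe. A second Sema3f probe, above background on 5 arrays, had that line at -6.07. There purmorphamine-Oct4 line 2 was at -2.69, beside -2.77 in MEF. It gave -2.74 for lines minus MEF and 1.43 for lines minus spheres, neither called on its own.

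Sema3a, the prototype repellent, had probes that disagreed. The probe used was dim in MEF (-8.86), at -4.32 in ES cells and between -7.11 and -3.10 in the lines, and gave 3.63 for lines minus MEF (limma adjusted p = 0.0873). The other 2 probes were bright in MEF (-2.71 and -0.82) and gave -4.36 and -6.11, each above background on 4 arrays. Raising signals to the highest array floor made another probe stand for the gene, with -3.18 (adjusted p = 0.000738). That setting gives all lines below the floor the same value, which narrows their spread and lowers p by construction. The direction of Sema3a is therefore unsettled on this array.

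Of 13 membrane-bound semaphorins, Sema4b was called higher and Sema6a lower in the lines than in MEF. That is 7.69% each way, beside 7.83% of all genes higher and 2.93% lower. Sema5a and Sema6d were called lower than in the spheres (15.4%, beside 2.89% of all genes). Sema4b was at -5.21 in MEF, not well above background in ES cells (-5.88), at -2.88 in the spheres and at -3.69, -2.56 and -2.13 in the lines. Every line was above MEF, by 2.44 on average (SE 0.590, limma adjusted p = 0.0260), and the spheres lay within the range of the lines. It was also the member with the smallest p against ES cells, at least 5.98-fold, without a call (adjusted p = 0.178). With signals raised to the highest floor the difference from MEF was 1.41 (adjusted p = 0.160).

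Sema6a, a transmembrane semaphorin of the developing cerebellum, was at 3.74 in MEF, 2.83 in the spheres, 1.14 in ES cells and 0.77, 1.76 and 2.03 in the lines. The lines lay below both fibroblast-derived samples, with a difference from MEF of -2.11 (SE 0.481, limma adjusted p = 0.0200). Its other 2 probes gave 1.21 and 0.68, and the mean of all probes -0.07 (adjusted p = 0.942). Sema5a was at 2.59 in the spheres, -2.07 in MEF and -6.42, -4.66 and -2.55 in the lines, and was not well above background in ES cells. Its difference from the spheres, -7.13 (SE 1.30, limma adjusted p = 0.00712), was the largest among the called members of that comparison. Sema6d followed the same order of samples, with 0.29 in the spheres, -1.52 in MEF and -6.47 to -2.49 in the lines (-4.97 against the spheres, SE 1.18, adjusted p = 0.0270; 0.0948 with slide as a block).

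Sema4d, whose receptor is Plxnb1, shows how much rests on the probe. The probe used for the gene was at 0.11 in MEF, 1.15 in the spheres and 0.22 to 2.32 in the lines, a difference from MEF of 1.31 that was not called (limma adjusted p = 0.313). The second probe, less than 1 kb away, was at -4.23 in MEF, -4.65 in the spheres, 0.84 in ES cells and 0.12 to 1.16 in the lines. Tested on its own with each probe as a feature, it was higher in the lines than in MEF by 4.89 (SE 0.488, adjusted p = 0.000201) and than in the spheres by 5.30 (adjusted p = 7.68e-05), with no overlap between lines and either sample. Both probes were above background on all 12 arrays.

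Sema4d probe used, chr13:50736625-50736684, minus strand: cccatgcccctctgtcttcgtggagagtgt
Sema4d second probe, chr13:50735911-50735970, minus strand: attcattttgaaggatttttctttctgaac

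Sema6b, Sema6c and Sema4c were steady, with lines from 3.22 to 4.49, from -0.39 to 0.78 and from -0.63 to 0.80, and with MEF inside the range of the lines in each (3.80, 0.50 and -0.45). None of the 3 was called. Sema5b was at 2.88 in MEF, 2.73 in the spheres and 1.17 to 1.97 in the lines, and its -1.32 against MEF just missed the threshold (limma adjusted p = 0.0651). It passed under normexp background (0.0385), with an intensity trend in the variances (0.0311), at the highest floor (0.0202) and among probes above background on 6 arrays (0.0438). Another Sema5b probe was dim in the spheres (-7.85) and exceeded them in the lines by 6.92 when tested on its own (adjusted p = 0.000415), while the probe used gave -1.17 (adjusted p = 0.112). Sema7a, a GPI-anchored semaphorin, was at -1.48 in the spheres, -2.53 in ES cells, -5.42 in MEF and -7.17 to -3.43 in the lines. Its difference from the spheres was -3.83 and not called (adjusted p = 0.0794). It was called lower than the spheres under normexp background (-2.38, 0.0183), quantile normalization (-3.85, 0.0475), at the highest floor (-2.62, 0.000152) and without oxysterol-Oct4 line 2 (-4.07, 0.0491). At the highest floor it was also called lower than ES cells (-1.56, 0.0199). Most lines lay below that floor and were given the same value, so both p-values at the highest floor are small by construction.

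**Figure D2:**
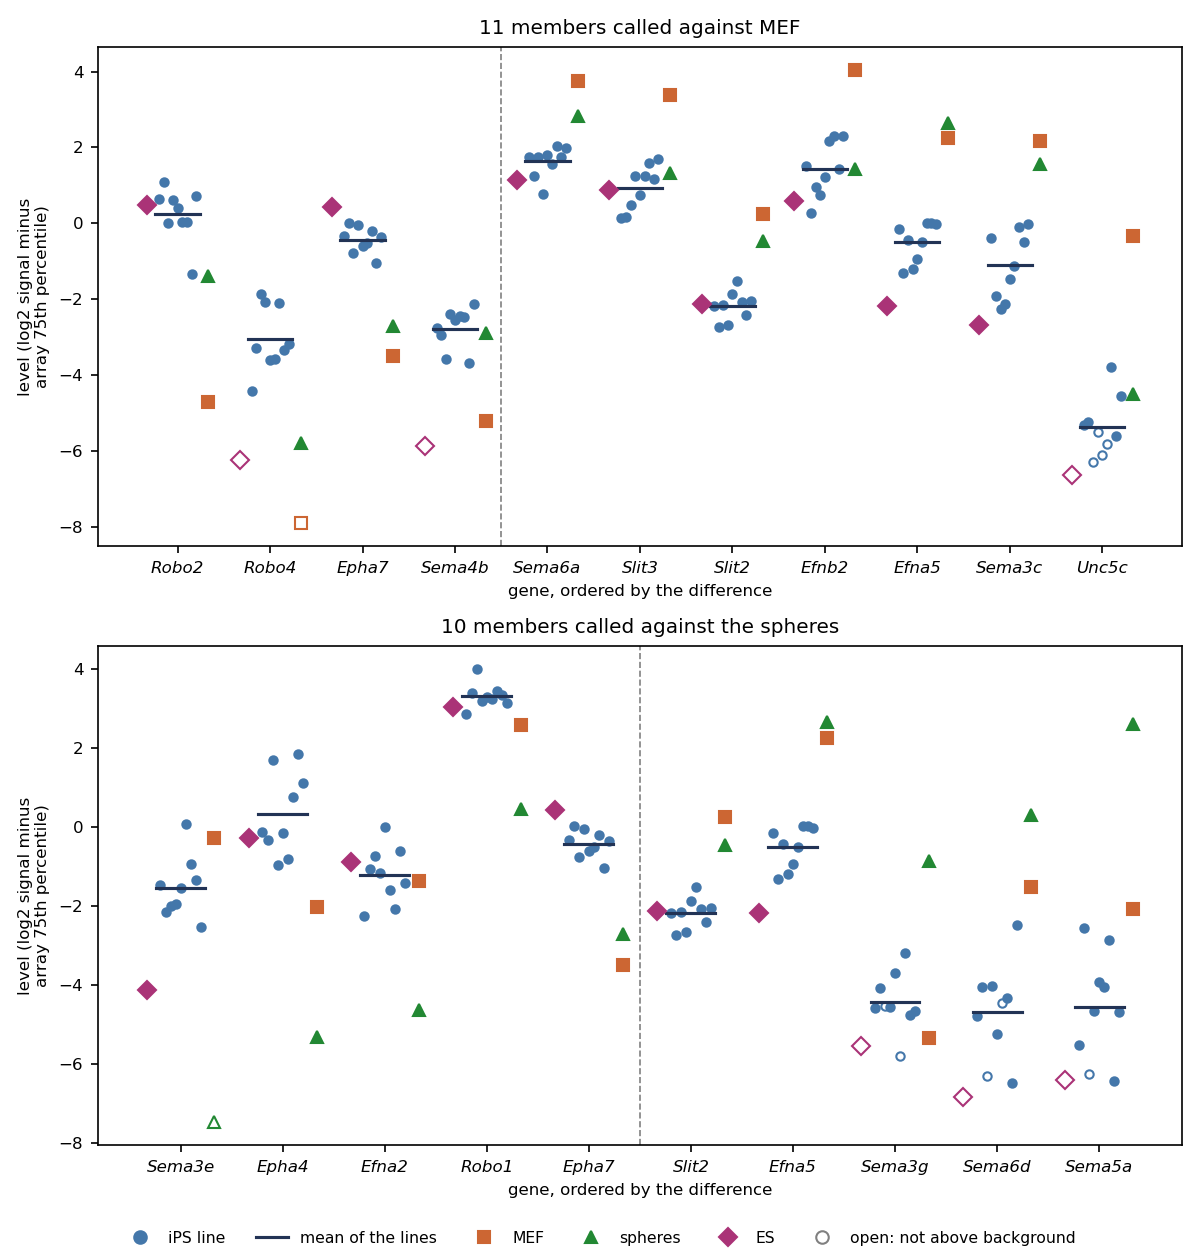
Levels (log2 signal minus the array's 75th percentile) of the 11 members called against MEF (top) and the 10 called against the spheres (bottom), compared only within a gene. Dots are the 9 iPS lines, bars their mean, squares MEF, triangles spheres and diamonds ES; open symbols were not well above background. MEF lies outside the range of the lines for all 11 genes of the upper panel, and the spheres outside it for all 10 of the lower.

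No plexin and no neuropilin was called by limma with all lines, the brightest probe and the 75th-percentile scaling, though several were under other settings. Plxna1, a co-receptor of neuropilins, was at 3.0 in MEF, 1.76 in the spheres, 1.80 in ES cells and 1.21 to 2.30 in the lines (-1.39, limma adjusted p = 0.0882; 0.0487 under normexp background and 0.0484 with a variance trend). Its other probe, tested on its own, was lower in the lines than in the spheres by -3.25 (adjusted p = 0.00474). Plxnb3 was at -0.88 in ES cells, -2.47 in the spheres, -5.73 in MEF and -6.93 to -3.52 in the lines. ES cells lay above every line, and the difference of -3.75 was not called (adjusted p = 0.454; called under normexp background correction, -2.54 with 0.0331). Plxna4 was at -1.75 in the spheres, -5.83 in MEF and -5.14 to -2.16 in the lines. Its -2.40 against the spheres was not called (adjusted p = 0.150), but was without Bmi1-Oct4 line 2 (-2.65, 0.0388), and another Plxna4 probe on its own gave -5.85 (0.0243).

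Nrp1, the receptor shared by class 3 semaphorins and VEGF, was at -0.04 in MEF, -2.07 in the spheres and -6.94 in ES cells, where it was not well above background. Among the lines Bmi1-Oct4 line 1 was at -1.16 and tail-tip line 2 at -3.58, and the other 7 lay between -6.92 and -5.06. Those 2 lines were also among the 3 with the most fibroblast transcripts, whose part in these values was not tested. The high reading of Bmi1-Oct4 line 1 rests on this probe alone: on the other 2 Nrp1 probes it was the lowest of the lines (-8.34 and -8.42). ES cells were at least 39.9-fold below MEF. The mean difference of the lines from MEF was -4.93 (SE 1.60) and not called (limma adjusted p = 0.0772), but it was -5.41 and called (0.00693) without Bmi1-Oct4 line 1. As means over the lines, the 3 Nrp1 probes gave -5.33, -4.93 and -3.44, and the last of these was called when probes were tested singly (adjusted p = 0.0178). Nrp2 was at 2.10 in MEF, 1.83 in the spheres and -0.94 to 1.69 in the lines (-1.75, adjusted p = 0.194).

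The netrins were near background: Ntn1, Ntn3, Ntn4 and Ntn5 were well above it in 2, 3, 1 and 3 of the 9 lines, in no case in ES cells, and none was called. Among their receptors Unc5c, which mediates repulsion by netrin, was at -0.34 in MEF, -4.51 in the spheres, -6.28, -5.50 and -3.78 in the lines, and not well above background in ES cells or in 4 of the lines. The lines were lower than MEF by -5.02 (SE 0.789, limma adjusted p = 0.00303), and ES cells by at least 32.3-fold. Unc5b, expressed in vessels, was at 2.77 in MEF, 2.27 in the spheres, -0.02 in ES cells and -0.55 to 1.95 in 8 lines (-1.91, adjusted p = 0.138), without a value for purmorphamine-Oct4 line 1. Unc5a, which lacked a value for tail-tip line 2, ranged from -2.43 to 2.77 in the other 8 lines, with oxysterol-Oct4 line 1 and purmorphamine-Oct4 line 1 (2.21) far above the rest, and MEF at -3.71 below all of them.

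Of 3 Slit ligands, Slit2 and Slit3 were called lower in the lines than in MEF (66.7%, beside 2.93% of all genes), and of 4 Robo receptors Robo2 and Robo4 were called higher (50%, beside 7.83%). Slit1 (1.16), Robo1 (0.74) and Robo3 (2.99) were not called. The families themselves were not tested. Slit2 was at 0.24 in MEF, -0.47 in the spheres, -2.14 in ES cells and -2.74, -2.15 and -1.51 in the lines. Slit3 was at 3.38 in MEF, 1.33 in the spheres, 0.87 in ES cells and 0.15, 1.16 and 1.70 in the lines. In both genes ES cells lay within the range of the lines and MEF above it, and the difference came to -2.43 in each (SE 0.471 and 0.627, limma adjusted p = 0.00940 and 0.0338).

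The other Slit2 probes disagreed on direction. One, above background on 10 arrays, gave -5.09, although Bmi1-Oct4 line 1 was at 1.65 on it beside 2.52 in MEF, and another, above background on 11, gave 0.54. Of the remaining 3, dim on at least 11 of 12 arrays, 1 gave -3.03 and the others 1.51 and 0.62. A second Slit3 probe gave -7.36. With the mean of all probes neither gene was called against MEF (Slit2 at -1.70 with a limma adjusted p of 0.187, Slit3 at -4.90 with 0.0615). The Slit3 call was lost without oxysterol-Oct4 line 2 (0.0517). Against the spheres Slit2 was lower by -1.72 (adjusted p = 0.0496), but that call was lost on leaving out Bmi1-Oct4 line 1 (0.0704) or 2 (0.0634), the Shh-Oct4 line (0.0674), oxysterol-Oct4 line 2 (0.0626), purmorphamine-Oct4 line 2 (0.0723), or tail-tip line 1 (0.0739) or 2 (0.0678). It was also lost without the filter on dim probes (0.0598) and with an intensity trend in the variances (0.0842). Slit1, the neural Slit, was at -4.99 in MEF and -4.78 to -3.18 in the lines and was not called.

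Robo1, the widely expressed Slit receptor, was at 2.58 in MEF, 3.04 in ES cells and 2.85, 3.28 and 4.0 in the lines, and at 0.44 in the spheres alone. The lines exceeded the spheres by 2.87 (SE 0.423, limma adjusted p = 0.00186) and differed from MEF by 0.74, without a call.

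Robo2 was at -4.72 in MEF, -1.38 in the spheres, 0.47 in ES cells and -1.33, 0.41 and 1.08 in the lines. The lines surrounded ES cells, lay far above MEF and lay above the spheres, with tail-tip line 1 next to them. They exceeded MEF by 4.97 (SE 0.716, limma adjusted p = 0.00179). This is the reading of 1 of 6 Robo2 probes, the only one well above background on all 12 arrays. Another, about 50 kb away, was above background on 6 arrays and was at -1.59 in MEF and -8.92 to -1.65 in the lines, a difference of -3.93. With the mean of all probes Robo2 was at -0.07 (adjusted p = 0.979). The opposite readings of these 2 probes are the reason they are printed.

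Robo2 probe used, chr16:73968260-73968319, minus strand: caatcggtgagcaatagctggcagacagtg
Robo2 other probe, chr16:73917461-73917520, minus strand: ttgaatatgtgttaaccatccatattaaga

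Robo4, the endothelial Robo, was not well above background in MEF (-7.91) or ES cells (-6.24). It was at -5.78 in the spheres and at -4.43, -3.30 and -1.87 in the lines, all 9 above background. The lines exceeded MEF by at least 13.2-fold (fitted difference 4.86, SE 0.857, limma adjusted p = 0.00559). The call was lost under normexp background correction (2.06, adjusted p = 0.0762), another way to subtract background, and at the highest array floor (1.16, 0.509). Of 10 endothelial markers 2 were called higher in the lines than in MEF (20%, beside 7.83% of all genes). Their median difference was 1.08, beside 0.38 over all genes. The markers did not move together. Tek, dim in MEF (-8.94), ran from -2.58 to -0.67 in the lines, while Kdr, at -5.13 in MEF, was well above background in 1 line. The part of these markers in the Robo4 value was not tested. Robo3 lies beside Robo4 on chromosome 9, on the opposite strand with the probes 2.2 kb apart. On the probe used, Robo3 was at -5.70 in MEF and -4.40 to -1.06 in the lines, all above MEF, and its 2.99 was not called (limma adjusted p = 0.149). A second Robo3 probe, above background on 8 arrays, gave 0.94. On it MEF (-4.98) lay within the range of the lines, -7.05 to -1.27.

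The promoter windows of Slit2 and Slit3 held more CpG than those of Robo2 and Robo4. The 250 bases before the transcription start are printed for these 4 genes, the Slits and Robos called against MEF, from RefSeq on GRCm38.p6, with each CpG in capitals. The Slit windows hold 25 and 35 CpG. Robo2 has 3 annotated starts, whose windows hold 8, 4 and 14 CpG, and the richest is shown; the window of Robo4 holds 2.

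Slit2, chr5:47982905-47983154, plus strand: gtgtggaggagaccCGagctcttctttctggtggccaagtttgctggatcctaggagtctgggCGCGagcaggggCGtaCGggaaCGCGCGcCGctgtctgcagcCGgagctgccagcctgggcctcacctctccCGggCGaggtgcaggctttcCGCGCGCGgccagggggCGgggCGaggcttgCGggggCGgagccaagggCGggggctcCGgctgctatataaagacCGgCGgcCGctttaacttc
Slit3, chr11:35121206-35121455, plus strand: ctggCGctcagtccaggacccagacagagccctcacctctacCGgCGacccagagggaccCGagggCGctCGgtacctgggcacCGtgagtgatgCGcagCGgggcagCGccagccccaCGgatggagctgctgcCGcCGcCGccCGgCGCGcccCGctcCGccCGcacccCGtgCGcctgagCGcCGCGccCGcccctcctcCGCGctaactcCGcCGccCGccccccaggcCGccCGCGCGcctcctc
Robo2, chr16:74411826-74412075, minus strand: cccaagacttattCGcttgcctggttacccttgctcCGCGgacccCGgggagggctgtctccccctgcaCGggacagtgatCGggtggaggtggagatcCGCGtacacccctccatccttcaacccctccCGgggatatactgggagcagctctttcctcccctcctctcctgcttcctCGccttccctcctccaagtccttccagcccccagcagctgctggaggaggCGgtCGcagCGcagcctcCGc
Robo4, chr9:37401722-37401971, plus strand: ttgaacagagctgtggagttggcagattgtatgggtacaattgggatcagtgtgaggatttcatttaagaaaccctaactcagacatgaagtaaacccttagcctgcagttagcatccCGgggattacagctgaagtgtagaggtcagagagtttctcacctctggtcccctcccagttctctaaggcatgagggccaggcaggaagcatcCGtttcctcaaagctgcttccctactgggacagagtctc

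Windows of 300 bases, 250 before and 50 after a start, were matched by symbol for 60 of 69 members, 76 windows in all. Of these 56.6% were CpG-rich (observed over expected CpG of at least 0.6 and at least 50% GC), against 33.5% of 32851 windows of all genes. Counted by gene, 38 of 60 members and 9717 of 27025 genes had at least 1 CpG-rich window. So did all 6 members with a window that were lower in the lines than MEF. Of the 4 that were higher, 2 did. Searched on both strands, CACGTG was in 6.58% of member windows and 7.15% of all windows, and TATAAA in 2.63% and 13.6%. The octamer ATGCAAAT was in none of the 76 and in 1.74% of all windows, and the Gli-type motif GACCACCCA in none and in 0.253%.

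The 2 single-array comparisons against MEF, which have no replicate and no test, each counted 47 of 68 members at a difference of 2-fold or more with the higher array well above background. In the spheres 27 were higher and 20 lower, 69.1% of members beside 50.4% of 25381 genes. By direction that is 39.7% of members against 32.4% of genes higher and 29.4% against 18% lower. In ES cells 19 were higher and 28 lower, again 69.1%, beside 47.2% of 25368 genes (27.9% against 25.6% higher, 41.2% against 21.6% lower). The lower array was not well above background for 11 of the 47 members in the first comparison and 13 in the second, and counting it at its detection floor left 5 of the 11 and 8 of the 13 at least 2-fold apart. Both comparisons, and that of the lines, use the same MEF array, so their values are set side by side and not compared by count.

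In the spheres 7 of 13 membrane semaphorins were higher and 1 lower than in MEF, led by Sema5a (4.66), Sema7a (3.95) and Sema4a (3.13). That is 53.8% higher and 7.69% lower, beside 32.4% and 18% of all genes. Of 14 Eph receptors 4 were higher and 7 lower, 28.6% and 50% beside the same shares of all genes. Epha8, dim in MEF, was among those higher, and Epha1 (-3.63) and Epha4 (-3.27) among those lower. Sema3g (4.47), Plxna4 (4.08), Sema3b (3.74), Robo2 (3.34), Plxnb3 (3.26), Efna1 (3.11) and Epha3 (2.64) also had large positive differences with both arrays above background. Sema3a was not well above background in MEF and was at least 1.77-fold higher. On the negative side, with both arrays above background, were Unc5c (-4.17), Efnb1 (-3.35), Efna2 (-3.27), Efnb2 (-2.64), Robo1 (-2.14), Nrp1 (-2.04) and Slit3 (-2.04). Sema3e, Epha6 and Ephb6 were not well above background in the spheres, and Epha6 was at least 2.42-fold and Ephb6 at least 2.97-fold lower there. Another probe gave the opposite direction for Efnb2 (1.17), Epha4 (2.07) and Sema3e (2.38). With the mean of all probes of a gene the sign turned for Robo2 (-1.26), Sema3a (-1.05), Epha3 (-1.08) and Epha6 (0.46).

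In ES cells both neuropilins and 3 of 6 measured class 3 semaphorins were lower than in MEF. That is 100% and 50%, beside 21.6% of all genes. Of the class 3 semaphorins 1 was higher (16.7%, beside 25.6% of all genes). With both arrays above background, large negative differences were those of Sema3c (-4.84), Efna5 (-4.43), Sema3e (-3.84), Efnb2 (-3.47), Plxnc1 (-2.86), Unc5b (-2.78) and Sema6a (-2.60). Beside Nrp1 and Unc5c, given above as bounds, Sema3f, Sema6d and Sema5a were not well above background in ES cells and were at least 26.7-fold, 14.3-fold and 9.73-fold lower. Large positive differences with both arrays above background were those of Robo2 (5.19), Efnb3 (5.01), Plxnb3 (4.85), Epha7 (3.92), Efna4 (3.44), Sema7a (2.89), Efna3 (2.75), Sema4g (2.38), Unc5a (2.32) and Sema4d (2.03), while Sema3a, dim in MEF like Epha10, was at least 5.47-fold higher. The mean of all probes turned the sign for Robo2 (-0.07), Sema3a (-2.21), Sema3e (0.34) and Plxnc1 (0.35). The lines differed from MEF by 3.98 for Efnb3 and 1.10 for Plxnb3, and neither was called.

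**Figure D3:**
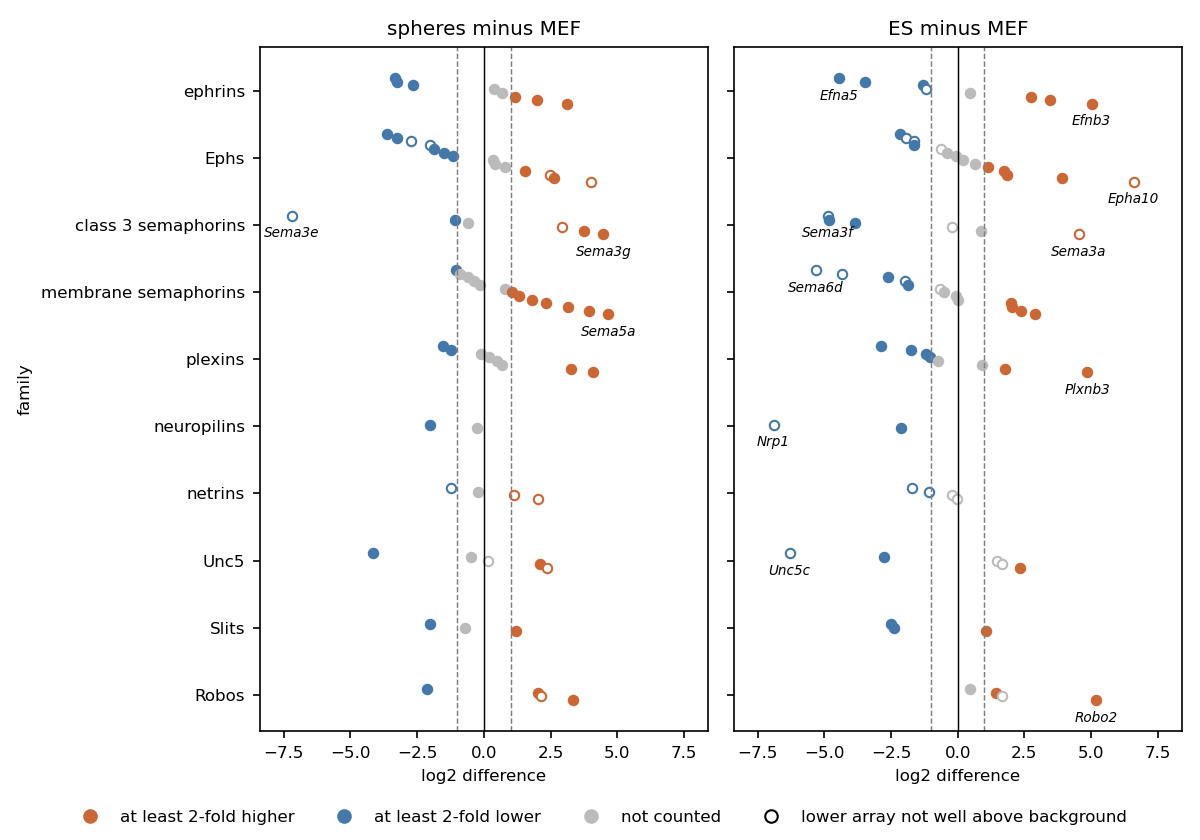
Log2 difference of the spheres (left) and of ES cells (right) from MEF for members of 10 families, 1 array against 1. Each point is a gene; orange and blue mark genes counted as at least 2-fold higher or lower, grey the rest; open points have a lower array not well above background, so their distance from 0 is not a measured size, and dashed lines mark 2-fold. Names are given for counted genes at least 4.4 apart, except Sema3c in ES cells. Examples are Sema3g (4.47) in the spheres and Robo2 (5.19) in ES cells.

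Between iPS lines of different origin limma called no member and no other gene. For Bmi1-Oct4 (2 lines) against the 5 hedgehog-agonist lines from embryonic fibroblasts, 0% of 25357 genes passed, 2396 genes had an unadjusted p under 0.05, and so did 3 members. These were Sema4f (-1.71, SE 0.555), Plxna4 (1.60, SE 0.593) and Slit3 (-0.91, SE 0.355), with limma adjusted p of 0.348, 0.450 and 0.491. Both Bmi1-Oct4 lines were on slide 1 and the 5 others on slides 2 and 3, so method and slide cannot be told apart. For tail-tip against embryonic oxysterol lines, 2 against 2, 0% of 25402 genes passed and 1643 had an unadjusted p under 0.05. Among the members 4 did: Epha4 (2.03), Epha10 (-3.32), Ephb2 (-1.33) and Plxnb1 (1.80), with adjusted p from 0.730 to 0.764. Both tail-tip lines were on slide 3 and both embryonic oxysterol lines on slide 2, so origin and slide cannot be told apart here either.

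Among the 38 members above background in all 9 lines the SD over lines had a median of 0.65 and ran from 0.28 to 1.47, beside a median of 0.53 over 14701 such genes. Across arrays, members above background numbered from 43 of 68 in the Shh-Oct4 line to 65 in Bmi1-Oct4 line 2. Without the 3 lines with the most fibroblast transcripts, chosen on that measured level, 12 members were called against MEF, 10 of them also called with all lines. Nrp1 (-5.77, limma adjusted p = 0.00371) and Sema3f (-4.12, 0.00953) were gained, and Sema4b (2.28, 0.0729) was lost.

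Several probes per gene allowed the readings to be compared. Of 20 members with at least 2 probes above background on 6 or more arrays, 6 had probes at least 2-fold apart from MEF in opposite directions in the lines: Ephb4, Plxna1, Robo2, Sema3e, Sema5b and Sema6a. Against the spheres there were 3 (Epha4, Epha7 and Sema5b) and against ES cells 1 (Plxna2). Between single arrays there were 6 for spheres against MEF (Efnb2, Epha4, Plxna1, Plxna3, Robo2 and Sema3e) and 6 for ES cells against MEF (Ephb4, Robo2, Robo3, Sema3e, Sema5b and Sema6a). The probe with the highest mean signal stood for the gene throughout.

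**Figure D4:**
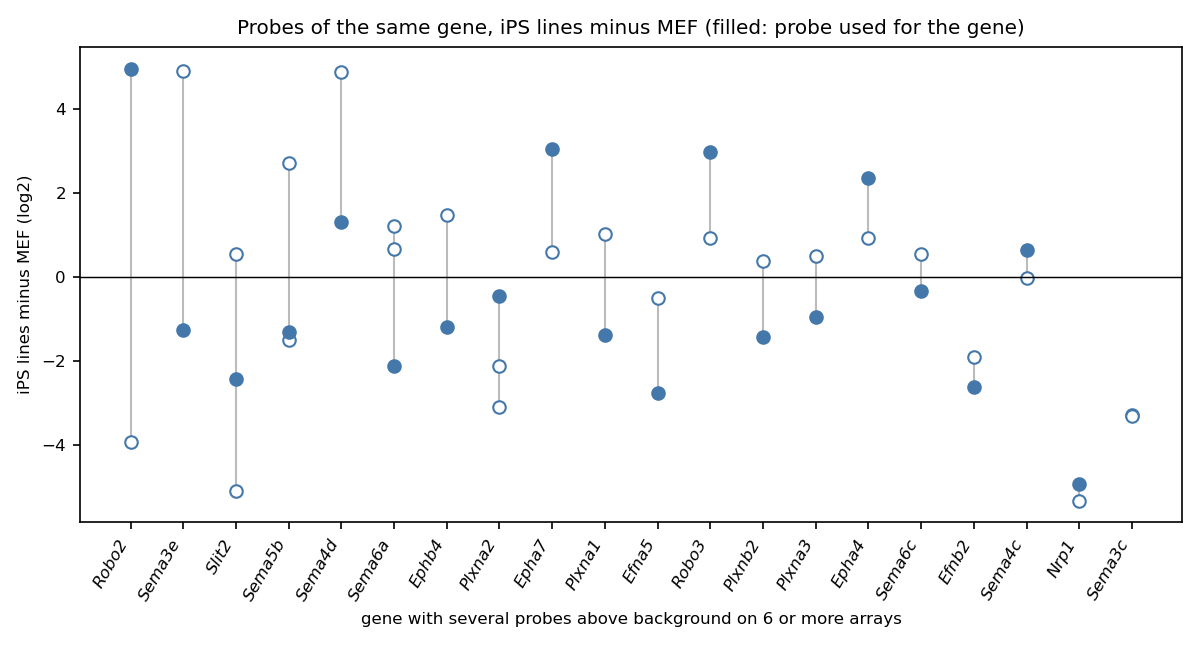
Log2 difference of the iPS lines from MEF (vertical axis) for each probe of the 20 members with several probes above background on 6 or more arrays (horizontal axis, ordered by the distance between probes). Filled circles are the probe used for the gene. The probes of Robo2 lie at 4.97 and -3.93, those of Sema3c at -3.28 and -3.30.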

How the data were processed

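Per the file headers, the deposited intensity values are background-subtracted processed signals written by Agilent Feature Extraction for 12 one-colour arrays, with no scaling between arrays. The deposited flags, other values of that program, mark spots as well above background, as saturated or as outliers. No further step of the authors is given by the labels or headers.

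Outlier spots were left out, replicate spots averaged, and the array's 75th percentile of log2 processed signal subtracted from the deposited intensities. Of 41174 gene probes, those well above background on at least 1 array were kept, and the probe with the highest mean signal stood for its gene. Symbols came from a RefSeq table, by accession for 22951 probes and by symbol or synonym for 9766; 8457 kept the deposited name. A further 2 probes that only a synonym would add were not counted as members. Probe positions are in mm7.

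The iPS lines were compared with MEF, ES and spheres in a limma 4-class model (8 residual degrees of freedom), and iPS groups with each other in an 8-group model (4 residual degrees of freedom), with empirical Bayes variances and Benjamini-Hochberg adjustment over all genes at 0.05 (R 4.3.3, limma 3.58.1). Comparisons of 1 array with 1 had no test: genes were counted at 2-fold or more, with the higher array well above background. A group with no array above background is given as a bound, at array floors from -7.25 to -4.18. The number of arrays limits the precision. The fit was tested on simulated data.

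For members called in a limma comparison, the values of MEF and the spheres and the range of the lines are given. For the 12 largest differences each way between single arrays, at least the single-array difference or its bound is given. Other members and further probes were named after their values were seen. Members and lists were chosen with earlier results of these data known. Alternatives were normexp background, quantile normalization, other scaling, filters, probe summaries, a raised floor, a variance trend, slide blocks, the 8-group model, fewer lines, a block for clone number, and 3-fold as threshold; testing each probe on its own was chosen after seeing the data. Same-numbered clones of different groups were checked and not treated as pairs. The gene of the effector list that was higher in the iPS lines than in MEF is not reported here.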

Additional observations from a re-analysis of the deposited data

Results flagged for a closer look

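For 7 of 68 members, 1 iPS line lay farther from the other 8 than the critical value of Dixon's test. The nominal rate of that value is 5%, which need not hold for signals near the array floors. Other genes were not screened, so whether 7 is more than in other genes was not tested.

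Sema3f was high in tail-tip line 2, at -0.90 with the next line at -3.99, but not on its second probe (-6.07). Sema3b was low in purmorphamine-Oct4 line 1, at -4.12 with the next at -1.65, and Ephb1 was low in the same line, at -3.21 with the next at -2.46. Robo1 was high in the Shh-Oct4 line, at 4.0 with the next at 3.43. Robo2 was low in tail-tip line 1, at -1.33 with the next at 0.02. Plxnb3 was low in oxysterol-Oct4 line 1, at -6.93 with the next at -4.93, but this spot and 2 others of the 9 were not well above background. Ephb6 was high in oxysterol-Oct4 line 1, at -1.18 with the next at -5.45, and only 2 of the lines were above background. Robo2 and Robo1 kept their calls without the line that stood apart.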

How the results depend on the processing

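Calls against MEF numbered 11 (4 higher, 7 lower). They were 7 with the mean of all probes (5 of the 11 and 2 others), 7 with slide as a fixed block and 0 within the slide of MEF, where 1 residual degree of freedom remained. Against the spheres they were 0 within the slide of the spheres, beside 10. Against ES cells normexp background gave 1 (Plxnb3) and raising signals to the highest array floor 4, beside 0. The raised floor gives dim lines the same value, which narrows their spread and lowers p by construction. Without a filter on dim probes Sema3d gave 1 call between Bmi1-Oct4 and hedgehog-agonist lines, beside 0. Leaving out each line in turn gave 8 to 12 calls against MEF, 9 to 11 against the spheres and 0 to 0 in each of the other 3 comparisons. With 1 value per gene, members called against MEF only under some alternative were Nrp1, Plxna1, Plxna4, Sema3a, Sema3f, Sema4d, Sema5b and Sema6d. Against ES cells they were Epha5, Epha10, Plxnb3 and Sema7a. Against the spheres they were Efna1, Nrp1, Plxna1, Plxna4, Plxnb3, Robo4, Sema3c, Sema3f, Sema4d, Sema5b and Sema7a. Testing each probe on its own added Epha3, Epha6 and Sema3e against MEF and Efnb2 against the spheres. The split against MEF was 3 higher and 11 lower under normexp background, and 2 and 10 at the highest floor.

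Signs turned with the mean of all probes, by its construction from further probes, for Robo2 against MEF in the lines (-0.07), in the spheres (-1.26) and in ES cells (-0.07); for Sema3a (-1.05), Epha3 (-1.08) and Epha6 (0.46) in the spheres; and for Sema3a (-2.21), Sema3e (0.34) and Plxnc1 (0.35) in ES cells. At the highest floor another Sema3a probe stood for the gene, with -3.36 in both the spheres and ES cells. The cause of the other changes was not tested.

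Clone numbers did not pair the samples: deviations of same-numbered lines correlated between -0.163 and 0.244, and with clone number as a replicate block the calls between iPS groups stayed at 0. A fixed slide block could not be fitted for Bmi1-Oct4 against hedgehog-agonist lines. Signal over background limits the netrins, Unc5d, Unc5cl, Epha6 and Ephb6, dim on most arrays, and the Shh-Oct4 line, where 43 of 68 members were above background.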

Other observations

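Receptor partners and intracellular effectors of the same pathways were measured through a list of 58 genes. Against MEF 1 was higher in the iPS lines and 6 were lower (12.1%, with a median difference of -0.78, beside 10.8% and 0.38 over all genes). Lower were Flrt2, a ligand of Unc5 receptors (-6.09, limma adjusted p = 0.0224), Sdc3, a heparan sulphate proteoglycan (-3.09, 0.0454), Srgap3, a Robo-binding GTPase activator (-2.58, 0.0372), Rasa1 (-2.21, 0.00503), the kinase Rock2 (-2.19, 0.0438) and Rnd1 (-1.62, 0.0417).

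Against the spheres 4 of the 58 were higher and 4 lower, 13.8% beside 8.68% of all genes. Flrt3, also a ligand of Unc5 receptors, was higher by 5.70 (limma adjusted p = 0.00208), Enah, an actin regulator, by 3.45 (0.00569), the focal adhesion kinase Ptk2 by 2.07 (0.0308) and Rnd1 by 1.64 (0.0460). The adhesion molecules L1cam (-2.40, 0.0137) and Nrcam (-2.99, 0.0278) and the exchange factors Vav3 (-1.67, 0.0246) and Ngef (-4.17, 0.00966), of which Ngef acts below Epha4, were lower.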
